A study of Mus musculus with 6 samples.

Results

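The genes described here encode the sorting machinery of the endosome: the ESCRT complexes, the retromer subunits Vps26a, Vps26b and Vps29, the tethering complexes and other proteins named Vps, and the sorting nexins. They were taken by symbol, as every gene whose name starts with Chmp, Vps or Snx followed by a digit, together with Hgs, Stam, Stam2, Tsg101, Mvb12a, Mvb12b and Pdcd6ip. The rule gave 78 genes of the 24411 in the table, and it used no measured value. All 78 are protein-coding in the GENCODE vM21 annotation. RNA of mouse primary cortical neurons, cultured from the cortex of embryos at day 18, was compared between 3 libraries given mouse αSyn PFF, the preformed fibrils of α-synuclein, and 3 libraries given the PBS vehicle. The fibrils were added at 3.45 μM on culture day 10 and the cells were harvested for RNA on day 18, 8 days later. The labels give no strain, genetic change or sorting step for either group. Whether the libraries of a group came from separate cultures is not stated, and the p-values then measure only the spread between these libraries, which may be technical.

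ESCRT complexes recognise ubiquitinated membrane proteins on the endosome and bud them into internal vesicles, which marks them for breakdown in the lysosome. Retromer and many sorting nexins do the opposite job and return receptors from the endosome to the Golgi or the plasma membrane. HOPS and CORVET tether endosomes and lysosomes before they fuse, and GARP tethers vesicles that return to the Golgi. In neurons these routes carry synaptic and trophic receptors, and fibrils taken up from the medium enter the same compartments.

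None of the 76 members that could be tested passed the threshold, in either direction. The counts were fitted with edgeR's quasi-likelihood test across 13919 genes with Benjamini-Hochberg adjustment, and a gene was called at an adjusted p under 0.05. Over all genes tested, 3.98% were called higher and 2.6% lower in PFF cultures, against 0 of 76 members higher and 0 lower. DESeq2 called 5.92% of all genes and limma-voom 6.37%, and each called 0 members. The smallest adjusted p of a member was 0.101, for Vps53. Before adjustment, 8 members had a p under 0.05, 5 with a positive and 3 with a negative fold change, which is 10.5% of those tested against 21.2% of all genes. DESeq2 gave 4 members, and limma-voom gave 8, with an unadjusted p under 0.05. The share of all genes at that p was not computed for either of these fits, so their counts are not read as a result.

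The fold changes were small and mostly well bounded. The median log2 fold change was 0.0044 over the members and -0.0006 over all genes tested, and the median size without its sign was 0.07 for members and 0.13 for all genes. The 95% interval lay within a 1.25-fold change in either direction for 53 members, or 69.7%, against 35.0% of all genes. It lay within 1.5-fold for 73 members, or 96.1%, against 73.9% of all genes. The 3 members whose interval reached beyond 1.5-fold were Vps37d, Snx20 and Snx22. The members are better counted than most genes, with a median of 59.2 CPM (counts scaled to 1000000 per library) against 26.7 CPM for all genes tested. Among genes at 10 CPM or more, the share within 1.25-fold was 72.6% of 73 members and 48.5% of 10009 genes.

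**Figure D1:**
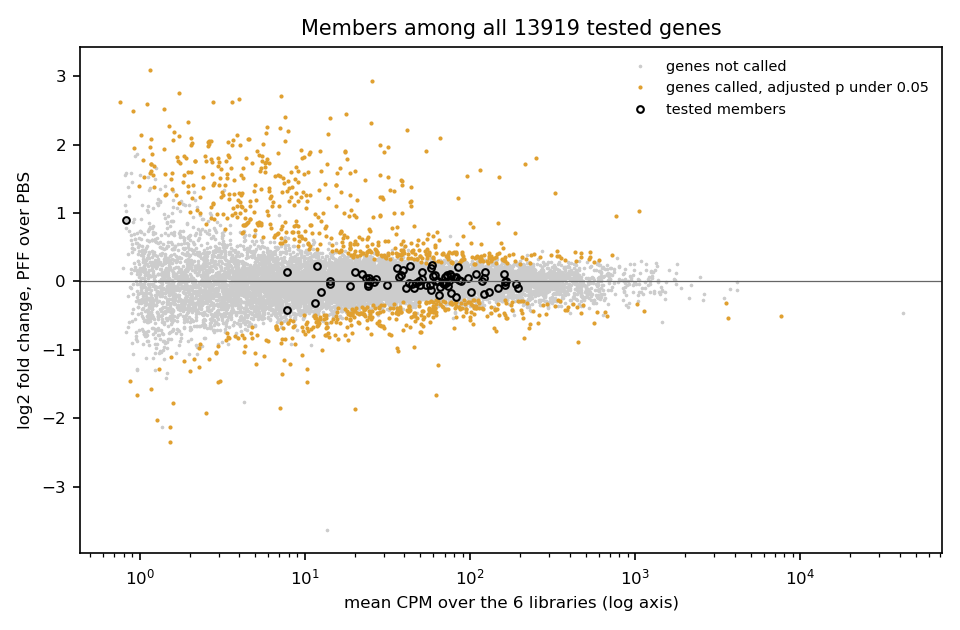
Each dot is 1 of 13919 tested genes, with the mean level over the 6 libraries in CPM on a log axis and the log2 fold change of PFF over PBS on the vertical axis. Called genes are orange, and the 76 tested members, drawn as open circles, include no called gene, the farthest from 0 being Snx20 at 0.90.

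The whole table sets these limits. Library totals lay between 9224974 and 10742383 counts. On the first principal component, with 49.2% of the variance, PFF libraries lay apart from PBS libraries. The second, with 18.3%, set replicate 3 of both groups apart from the rest, at -18.0 for PFF 3 and -14.5 for PBS 3. The labelled neurons were checked by their markers, which summed to 5400 to 5929 CPM in PFF libraries and 5198 to 5499 CPM in PBS libraries over 10 genes, 1 of them called higher. Markers of other cells moved with the treatment. Of 17 tested markers of microglia and macrophages, 16 were called higher in PFF cultures, with a summed level of 632 to 764 CPM in PFF and 218 to 342 CPM in PBS libraries. Of 7 oligodendrocyte markers 5 were called higher, with sums of 634 to 963 CPM in PFF and 392 to 481 CPM in PBS libraries. All 8 markers of oligodendrocyte progenitors were called lower, with sums of 509 to 547 CPM in PFF and 718 to 880 CPM in PBS libraries. Of 8 astrocyte markers 3 were called lower, and sums were 3511 to 4513 CPM in PFF and 3623 to 4740 CPM in PBS libraries. Vascular and fibroblast markers summed to 31.3 to 51.0 CPM in PFF and 41.3 to 54.3 CPM in PBS libraries, with 0 of 8 called and 1 further marker at 0 in all libraries. In bulk RNA, fewer cells of a type and less RNA per cell cannot be told apart, and the part these cells have in the members' values was not tested.

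Sequence near the start site was available for 54 of the 78 members, as RefSeq windows of the GRCm38.p6 build from 250 bases before to 50 bases after the start. The windows were searched on both strands for CACGTG, the E-box core, and for GTCACGTGA, the longer element bound by the lysosomal regulators TFEB and TFE3. The core was found in 7 of these 54 members, or 13%, against 8.09% of 27025 genes. These 27025 are all genes with a window, tested here or not. The shares are not matched for level and were not tested. The longer element, which contains the core, was found in Pdcd6ip, Vps16, Vps26a and Vps33a, or 7.41% of members against 0.895% of genes. Its full palindrome, with a further C at its end, was found in Vps16, Vps26a and Vps33a, or 5.56% against 0.37%. The 4 sites are shown because Pdcd6ip and Vps26a are among the 8 members with an unadjusted p under 0.05. Each is read 5′ to 3′ on the gene's own strand, with 10 bases on either side and the element in capitals. In Pdcd6ip the capitals are the reverse complement of the element. The Pdcd6ip stretch is read from the minus strand at chr9:113708280-113708308 and the Vps16 stretch from the plus strand at chr2:130424290-130424318. The Vps26a stretch is read from the minus strand at chr10:62486733-62486761 and the Vps33a stretch from the minus strand at chr5:123573011-123573039. Vps26a has windows at 2 starts. Its element begins at -153 from the start used, which places it inside the gene span given below.
Pdcd6ip: ggtggcaccaTCACGTGACcgagcggcgc
Vps16: aggcggcctcGTCACGTGAccccgaaggg
Vps26a: atggcctacgGTCACGTGAcgggcggcgg
Vps33a: tgaacgtcccGTCACGTGAcgcaggcggc
The log2 fold changes of these 4 genes were 0.20 for Pdcd6ip, -0.00066 for Vps16, 0.20 for Vps26a and 0.09 for Vps33a. None was called, and a match of letters does not show that a factor binds there.

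ESCRT-0, which gathers ubiquitinated cargo, is made of Hgs and the Stam proteins. No member of the 3 was called or had an unadjusted p under 0.05, and the median log2 fold change was 0.08. Hgs, the subunit that binds the endosome's phosphoinositide, stood at 82.0, 83.8 and 71.1 CPM in PFF and 74.5, 76.6 and 67.8 CPM in PBS libraries, with overlapping groups and a log2 fold change of 0.11 ± 0.09 (SE). It was also the highest of the complex per length, at 105 TPM (a level divided by exonic length, which allows genes to be compared) in PFF and 93.4 TPM in PBS libraries. Stam gave 0.08 ± 0.08 and Stam2 -0.05 ± 0.09. Stam made up 63.1% ± 0.4 of the summed TPM of both genes in PFF and 61.0% ± 1.7 in PBS libraries (SD, n = 3 each).

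ESCRT-I links the cargo to the later complexes. Of its 8 genes, 2 had an unadjusted p under 0.05 and a negative fold change, against 10.5% of all genes. Neither was called in the fit of all 6 libraries, and the share is not read as a result about the complex. Vps28, a core subunit on chromosome 15 (76622087 to 76626086, mm10), stood at 71.5, 71.9 and 83.6 CPM in PFF and 95.4, 80.9 and 88.4 CPM in PBS libraries. PFF 3 lay above PBS 2, so the groups overlapped, and the log2 fold change was -0.22 ± 0.09 with a 95% interval from -0.41 to -0.03, an unadjusted p of 0.0265 and an adjusted p of 0.171. Vps37d, 1 of 4 alternative VPS37 subunits and a gene of chromosome 5 (135072900 to 135078266), stood at 6.07, 6.46 and 7.51 CPM in PFF and 8.23, 7.86 and 10.7 CPM in PBS libraries. All 3 PFF libraries lay below all 3 PBS libraries. Its log2 fold change was -0.42 ± 0.17, with an interval from -0.78 to -0.06 and an adjusted p of 0.163.

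The other 3 VPS37 genes gave positive log2 fold changes, 0.06 for Vps37a, 0.06 for Vps37b and 0.04 for Vps37c, and none was called. Vps37d is the smallest of the 4 per length, with 10.6% ± 1.2 of their summed TPM in PFF and 14.0% ± 1.7 in PBS libraries (SD, n = 3 each), a share that ran from 9.82% to 11.9% in PFF and from 12.6% to 15.9% in PBS libraries. Tsg101, the subunit that binds ubiquitin, gave -0.02 ± 0.07, with an interval from -0.18 to 0.14. Mvb12b and Mvb12a, alternative accessory subunits, gave -0.04 ± 0.07 and 0.13 ± 0.12. Of Vps37b's exonic bases, 42.5% lie opposite Hip1r, and the strand setting of the counting is not given in the sources used here.

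ESCRT-II was represented by Vps25 and Vps36, which bridge ESCRT-I to ESCRT-III. Vps25 gave a log2 fold change of -0.04 ± 0.08 and Vps36 of -0.04 ± 0.11, with intervals from -0.20 to 0.13 and from -0.28 to 0.19. Vps25 shares 67.2% of its exonic bases with Ramp2 on the same strand, so its counts are uncertain.

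ESCRT-III, whose CHMP proteins polymerise on the membrane and pinch off the vesicle, included the members with the highest levels among the ESCRT genes. Chmp5 stood at 251 TPM in PFF and 269 TPM in PBS libraries, Chmp2a at 246 and 267 TPM, and Chmp4b, the main filament-forming subunit, at 242 and 226 TPM. None of the 9 tested genes was called or had an unadjusted p under 0.05, and the median log2 fold change was 0.02. Chmp2a stood at 64.0, 70.0 and 82.8 CPM in PFF and 84.9, 77.6 and 80.8 CPM in PBS libraries, with a log2 fold change of -0.17 ± 0.09. Chmp5 stood at 83.2, 93.4 and 113 CPM in PFF and 104, 101 and 115 CPM in PBS libraries, with a log2 fold change of -0.15 ± 0.10. In both genes PFF 1 and PFF 2 lay below every PBS library, while PFF 3 lay among them.

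Chmp2b, whose human gene is mutated in a form of frontotemporal dementia, was close to level, at 89.1, 87.4 and 89.4 CPM in PFF and 84.0, 86.9 and 93.4 CPM in PBS libraries. Its log2 fold change was 0.01 ± 0.07, with an interval from -0.15 to 0.17. Chmp4c was counted 1, 0 and 0 times in PFF and 1, 0 and 3 times in PBS libraries and was not tested, where a count of 0 allows up to 3 counts, or 0.294 CPM in PFF 2, 0.297 CPM in PFF 3 and 0.291 CPM in PBS 2. Chmp4b supplied 99.99% of the summed TPM of both Chmp4 genes in PFF and 99.98% in PBS libraries. Chmp1a supplied 73.6% ± 1.8 of the Chmp1 pair in PFF and 76.1% ± 2.5 in PBS libraries. Of Chmp1b's exonic bases, 24.0% lie opposite AC140336.1, so this share is uncertain while the strand setting is not known.

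Pdcd6ip, Vps4a and Vps4b, the members that work with ESCRT-III, all had positive fold changes, though none was called. The 12 ESCRT accessory genes outside the symbol rule went both ways, with 5 positive and 7 negative fold changes. Pdcd6ip encodes ALIX, which recruits ESCRT-III without ubiquitin, and lies on chromosome 9 (113651744 to 113708259). It stood at 95.9, 91.9 and 83.7 CPM in PFF and 82.8, 78.0 and 75.0 CPM in PBS libraries. Every PFF library lay above every PBS library, with PFF 3 and PBS 1 less than 1 CPM apart. The log2 fold change was 0.20 ± 0.08, with an interval from 0.03 to 0.38, an unadjusted p of 0.0226 and an adjusted p of 0.158. Vps4a and Vps4b encode the ATPases that take ESCRT-III apart. Vps4a stood at 112, 112 and 113 CPM in PFF and 99.0, 106 and 106 CPM in PBS libraries, without overlap, and its log2 fold change was 0.11 ± 0.07. Vps4b gave 0.17 ± 0.09. Vps4a supplied 90.5% ± 0.3 of the summed TPM of the pair in PFF and 90.9% ± 0.8 in PBS libraries (SD, n = 3 each).

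**Figure D2:**
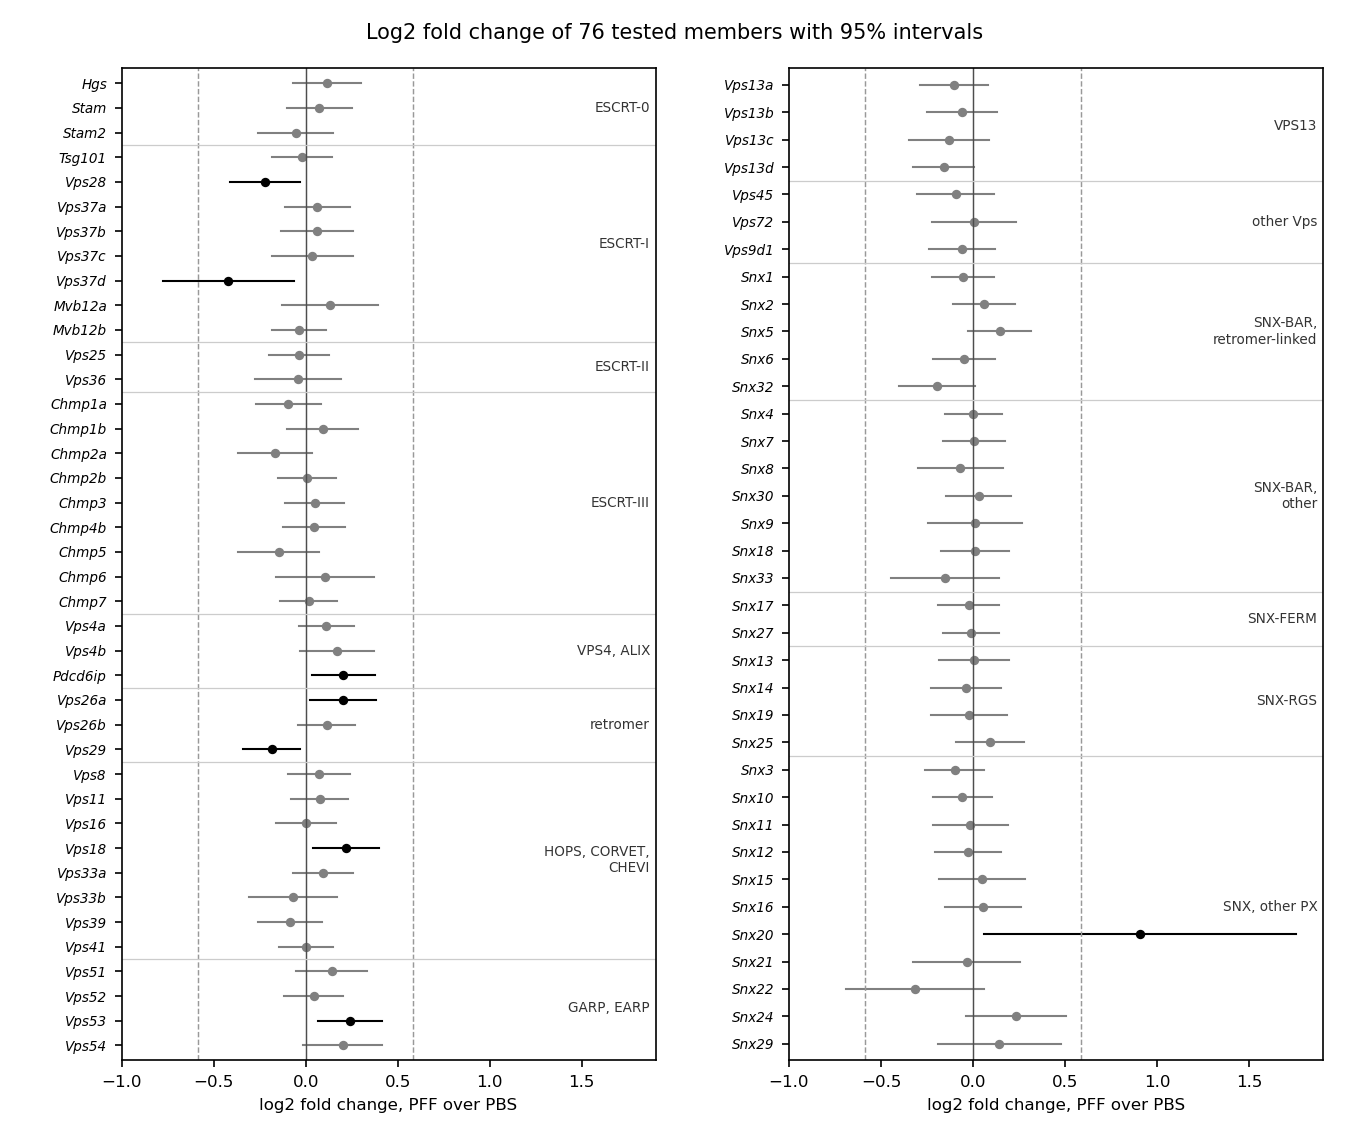
The log2 fold change of PFF over PBS is drawn for each of the 76 tested members, grouped by complex, with its 95% interval as a bar and dashed lines at a 1.5-fold change either way. Black marks the 8 members with an unadjusted p under 0.05, and the widest bar is that of Snx20, from 0.06 to 1.75.

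Retromer's cargo-binding subunits in the rule were Vps26a, Vps26b and Vps29, and their values went both ways. Vps26a, on chromosome 10 (62455235 to 62486805), stood at 61.3, 65.9 and 60.0 CPM in PFF and 51.9, 52.1 and 58.8 CPM in PBS libraries. Vps29, the subunit that binds retromer's partner TBC1D5, encoded on chromosome 5 (122354369 to 122364984), stood at 110, 108 and 121 CPM in PFF and 131, 126 and 129 CPM in PBS libraries. Neither gene's groups overlapped, with PFF above PBS in Vps26a and PFF below PBS in Vps29. The log2 fold changes were 0.20 ± 0.08 for Vps26a, with an interval from 0.02 to 0.38 and an adjusted p of 0.184, and -0.18 ± 0.07 for Vps29, with an interval from -0.34 to -0.03 and an adjusted p of 0.163.

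Vps26b, the paralog of Vps26a, stood at 162, 177 and 161 CPM in PFF and 155, 158 and 149 CPM in PBS libraries, without overlap. Its log2 fold change was 0.11 ± 0.07, with an interval from -0.04 to 0.27. It supplied the larger part of the summed TPM of both VPS26 genes, 59.9% ± 0.2 in PFF and 61.4% ± 2.3 in PBS libraries (SD, n = 3 each). Vps26c, a subunit of the related retriever complex, is listed under the older symbol Dscr3 and gave -0.08 ± 0.08 with an adjusted p of 0.630.

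HOPS, CORVET and CHEVI, the tethers of endosomes and lysosomes, held 8 members with a median log2 fold change of 0.04. Vps18, a core subunit shared by HOPS and CORVET on chromosome 2 (119288740 to 119298453), stood at 45.1, 48.3 and 45.9 CPM in PFF and 37.4, 41.6 and 40.6 CPM in PBS libraries. Every PFF library lay above every PBS library, and the log2 fold change was 0.22 ± 0.08, with an interval from 0.04 to 0.40 and an adjusted p of 0.149. The other core subunits gave 0.08 ± 0.07 for Vps11, -0.00066 ± 0.08 for Vps16 and 0.09 ± 0.08 for Vps33a. Vps11 also stood without overlap, at 79.8, 76.9 and 77.6 CPM in PFF and 76.0, 72.6 and 73.6 CPM in PBS libraries. The HOPS subunits Vps41 and Vps39 gave 0.0024 ± 0.07 and -0.08 ± 0.08, the CORVET subunit Vps8 gave 0.07 ± 0.08, and the CHEVI subunit Vps33b gave -0.07 ± 0.11. Vps41 had the highest level of the group, at 98.1 TPM in PFF and 94.4 TPM in PBS libraries.

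GARP and EARP, which tether vesicles at the Golgi and at recycling endosomes, had positive fold changes in all 4 members, with a median log2 fold change of 0.17 and none called. Vps53, on chromosome 11 (76046226 to 76179647), stood at 65.2, 66.3 and 59.7 CPM in PFF and 56.7, 51.2 and 53.9 CPM in PBS libraries. Every PFF library lay above every PBS library. The log2 fold change was 0.24 ± 0.08, with an interval from 0.07 to 0.42, an unadjusted p of 0.0102 and an adjusted p of 0.101. Vps54, the GARP-specific subunit whose mutation causes motor neuron loss in the wobbler mouse, stood at 41.6, 36.2 and 37.6 CPM in PFF and 34.7, 36.3 and 29.5 CPM in PBS libraries. PFF 2 lay just under PBS 2, and the log2 fold change was 0.20 ± 0.10, with an interval from -0.01 to 0.42. The shared subunits Vps51 and Vps52 gave 0.14 ± 0.09 and 0.04 ± 0.07, and Vps51 shares 18.0% of its exonic bases with Tm7sf2 on the same strand. The EARP-specific subunit Vps50, listed as Ccdc132, gave 0.11 ± 0.08 with an adjusted p of 0.473.

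The VPS13 genes encode large proteins that carry lipids between membranes, and human VPS13C is a Parkinson disease gene. All 4 had negative log2 fold changes, -0.10 for Vps13a, -0.06 for Vps13b, -0.13 for Vps13c and -0.16 for Vps13d, with a median of -0.12, and none was called. Vps13d, the highest of them per length at 19.7 TPM in PFF and 21.1 TPM in PBS libraries, stood at 131, 123 and 113 CPM in PFF and 142, 134 and 134 CPM in PBS libraries. The groups did not overlap, and the interval ran from -0.33 to 0.0046. Vps13c stood at 64.5, 51.4 and 49.6 CPM in PFF and 63.1, 57.1 and 61.0 CPM in PBS libraries, so that PFF 1 was the highest of all 6.

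The remaining Vps symbols were Vps45, which works with SNARE proteins at the endosome, Vps9d1, which carries a Rab-activating VPS9 domain, and Vps72, a nuclear subunit of chromatin remodelling complexes. Their log2 fold changes were -0.09 ± 0.10, -0.06 ± 0.08 and 0.0049 ± 0.11.

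Sorting nexins bind endosomal phosphoinositides through a PX domain, and 29 of 30 could be tested. The rule's 5 SNX-BAR proteins that form the tubules for retromer cargo had a median log2 fold change of -0.05, with 0 called and none at an unadjusted p under 0.05. Snx5 stood at 125, 122 and 140 CPM in PFF and 120, 110 and 121 CPM in PBS libraries, and Snx32, its paralog, at 62.6, 64.4 and 53.3 CPM in PFF and 70.4, 74.8 and 61.6 CPM in PBS libraries. Every PFF library lay above every PBS library in Snx5, whereas in Snx32 PFF 1 and PFF 2 lay above PBS 3. The log2 fold changes were 0.14 ± 0.08 for Snx5 and -0.20 ± 0.10 for Snx32, with intervals from -0.03 to 0.31 and from -0.40 to 0.0097. Of the summed TPM of Snx5, Snx6 and Snx32, which take the same place beside Snx1 or Snx2, Snx5 supplied 48.2% ± 3.0 in PFF and 43.6% ± 2.6 in PBS libraries, and Snx32 26.4% ± 2.9 in PFF and 30.2% ± 2.7 in PBS libraries (SD, n = 3 each). For both genes the shares of the groups overlapped. Of Snx32's exonic bases, 13.2% lie opposite Cfl1.

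Snx1, Snx2 and Snx6 gave -0.05 ± 0.08, 0.06 ± 0.08 and -0.05 ± 0.08. The 7 other SNX-BAR members lay near 0, with a median log2 fold change of 0.0039. They included Snx4, which acts in recycling and autophagy, at 0.0010 ± 0.07, and the endocytic Snx9, Snx18 and Snx33 at 0.01 ± 0.12, 0.01 ± 0.09 and -0.15 ± 0.14. Snx8 gave -0.07 ± 0.11.

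Snx27 and Snx17, the FERM-domain adaptors that return synaptic receptors and lipoprotein receptors to the surface, gave -0.01 ± 0.07 and -0.02 ± 0.08. Of Snx17's exonic bases, 11.9% lie opposite Eif2b4. Snx27 stood at 155, 167 and 162 CPM in PFF and 157, 163 and 168 CPM in PBS libraries, and its interval ran from -0.17 to 0.14. Snx31, the third gene of this class, was counted 1, 3 and 0 times in PFF and 0, 1 and 4 times in PBS libraries and was not tested, where a count of 0 allows up to 0.297 CPM in PFF 3 and 0.325 CPM in PBS 1. The SNX-RGS group, Snx13, Snx14, Snx19 and Snx25, had a median of -0.0088, and the largest of their fold changes was 0.09 ± 0.09 for Snx25.

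Snx3, which brings retromer to its cargo with its PX domain alone, had the highest level of all members. It stood at 526 ± 3.5 TPM in PFF and 544 ± 13.2 TPM in PBS libraries (SD, n = 3 each), and its log2 fold change in the CPM fit was -0.10 ± 0.07, with an interval from -0.26 to 0.06. Its paralog Snx12 supplied 9.79% of the TPM of the pair in PFF and 9.33% in PBS libraries. The level of the other 77 members ran down from Chmp5 to Chmp4c, and the levels of Chmp5, Chmp2a and Chmp4b overlapped among libraries. Per-length levels and CPM are scaled differently, and every call, fold change and p-value rests on the fit of counts. TPM shares and the separation of libraries are descriptions.

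**Figure D3:**
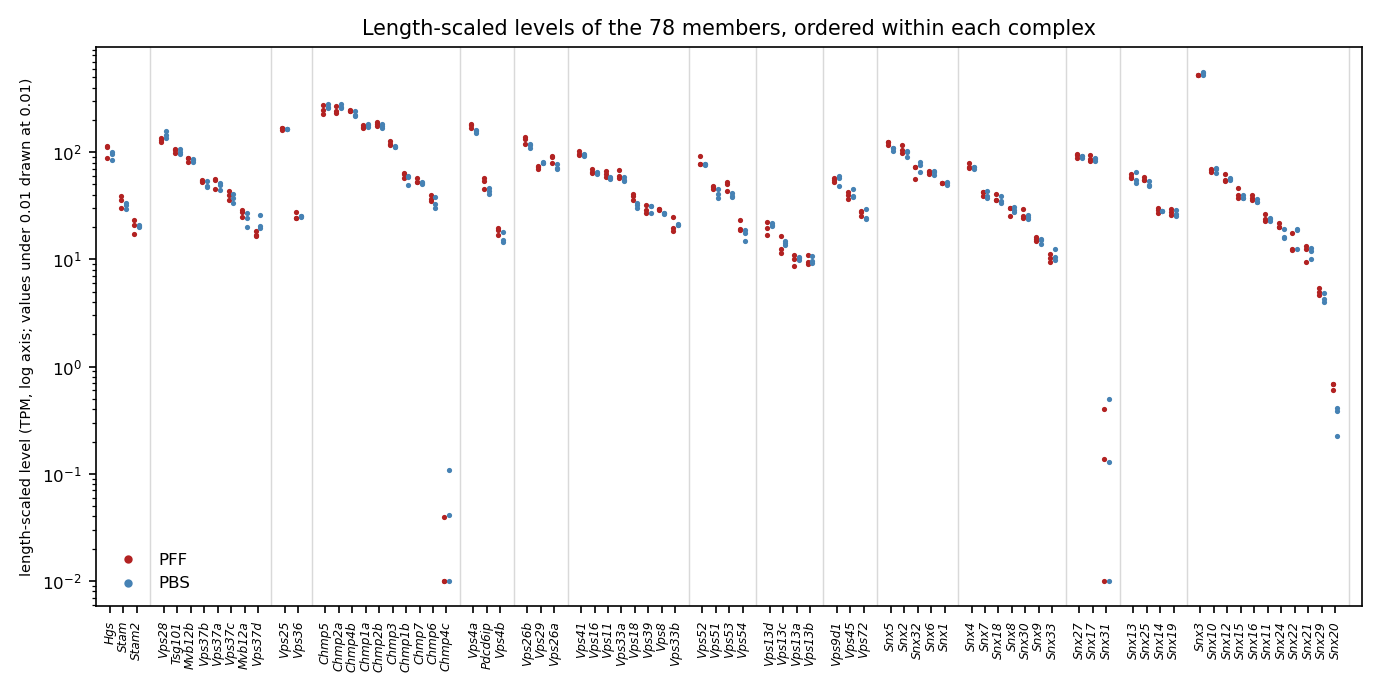
The level of each of the 78 members is drawn in TPM on a log axis, 1 dot per library, with PFF to the left of PBS and values under 0.01 drawn at 0.01. Snx3 stands highest, while Chmp4c, Snx31 and Snx20 lie under 1 TPM in every library.

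Snx20 had the largest fold change of any member and 1 of the lowest levels. Its protein is known as a partner of the leukocyte adhesion ligand PSGL-1, and the gene lies on chromosome 8 (88626563 to 88636128). It was counted 11, 10 and 12 times in PFF and 6, 7 and 4 times in PBS libraries, or 1.06, 0.979 and 1.19 CPM in PFF and 0.650, 0.680 and 0.385 CPM in PBS libraries. Every PFF library lay above every PBS library. The log2 fold change was 0.90 ± 0.39, with an interval from 0.06 to 1.75 and an adjusted p of 0.207, so that a 2-fold difference lay inside the interval. The microglial markers whose summed CPM is given above were higher in the same libraries, and their part in this value was not tested. Snx22 and Snx24, like Snx20 placed in none of the BAR, FERM and RGS groups, gave -0.31 ± 0.17 and 0.23 ± 0.13. Snx22 lies opposite Ppib over 28.5% of its exonic bases.

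**Figure D4:**
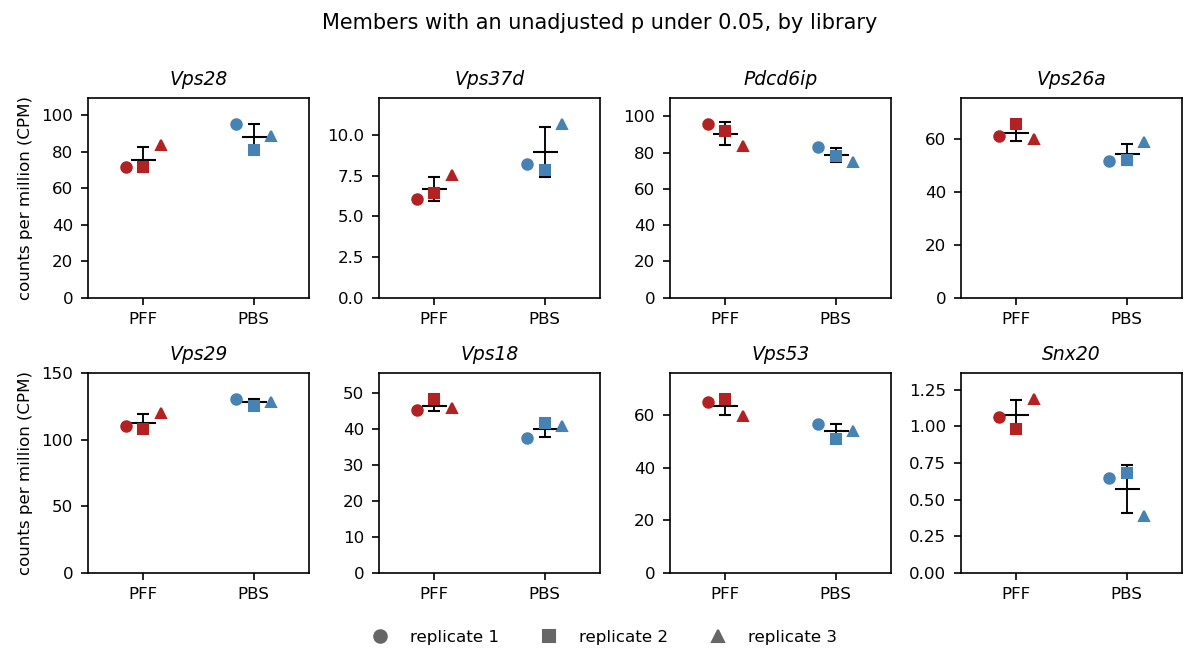
CPM of the 8 members with an unadjusted p under 0.05 are drawn by library, PFF left of PBS, with the group mean and SD (n = 3 each) as a line and bar and the replicate number as the symbol. The groups overlap in Vps28 and are separate in the other 7 genes.

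By separation of the groups alone, 10 members had every PFF library above every PBS library, which is 13.4% over all genes tested. They were Vps4a, Pdcd6ip, Vps26a, Vps26b, Vps11, Vps18, Vps53, Snx5, Snx20 and Snx24. The opposite held for Vps37d, Vps29 and Vps13d, against 11.6% of all genes. With 10 of 76 and 3 of 76, the members did not exceed either background.

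Whether members were called depended on how replicate 3 was treated. Without PFF 3, 2 members were called higher, Pdcd6ip and Vps53, against 6.19% of all genes. Another 4, Chmp2a, Chmp5, Vps28 and Vps29, were called lower, against 7.01% of all genes. These calls came to 7.89% of the members, while 13.2% of all genes were called in either direction. With replicates 1 and 2 of each group only, Vps26a was called higher as well, and the 7 called members of 75 made up 9.33%, against 17.2% of all genes, 8.78% higher and 8.38% lower. A batch term for replicate 3 gave Pdcd6ip and Vps53 higher and Vps28, Vps29 and Snx32 lower. That is 6.58% of the members, against 14.4% of all genes, 7.39% higher and 7.01% lower. In each of these fits the called share of the members was below that of all genes, and the replicate 3 pair alone cannot be tested. Leaving out any other single library gave 0 calls.

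The log2 fold change of Vps53 was 0.29 without PFF 3 (edgeR adjusted p 0.0316), that of Pdcd6ip 0.26 (0.0381), that of Vps28 -0.30 (0.0294) and that of Vps29 -0.23 (0.0437). Chmp2a gave -0.27 (0.0369) and Chmp5 -0.27 (0.0407), against -0.17 and -0.15 with all 6 libraries. Leaving out PFF 1 moved these genes the other way, to -0.09 for Chmp2a and -0.05 for Chmp5, and neither was called. Over the 17 alternatives run, the adjusted p ranged from 0.0145 to 0.346 for Vps53 and from 0.0311 to 0.412 for Pdcd6ip. Over the same settings it ranged from 0.0145 to 0.482 for Vps28 and from 0.0250 to 0.473 for Vps29. Vps18 and Vps37d were called under no alternative, with lowest adjusted p of 0.0555 and 0.0631.

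**Figure D5:**
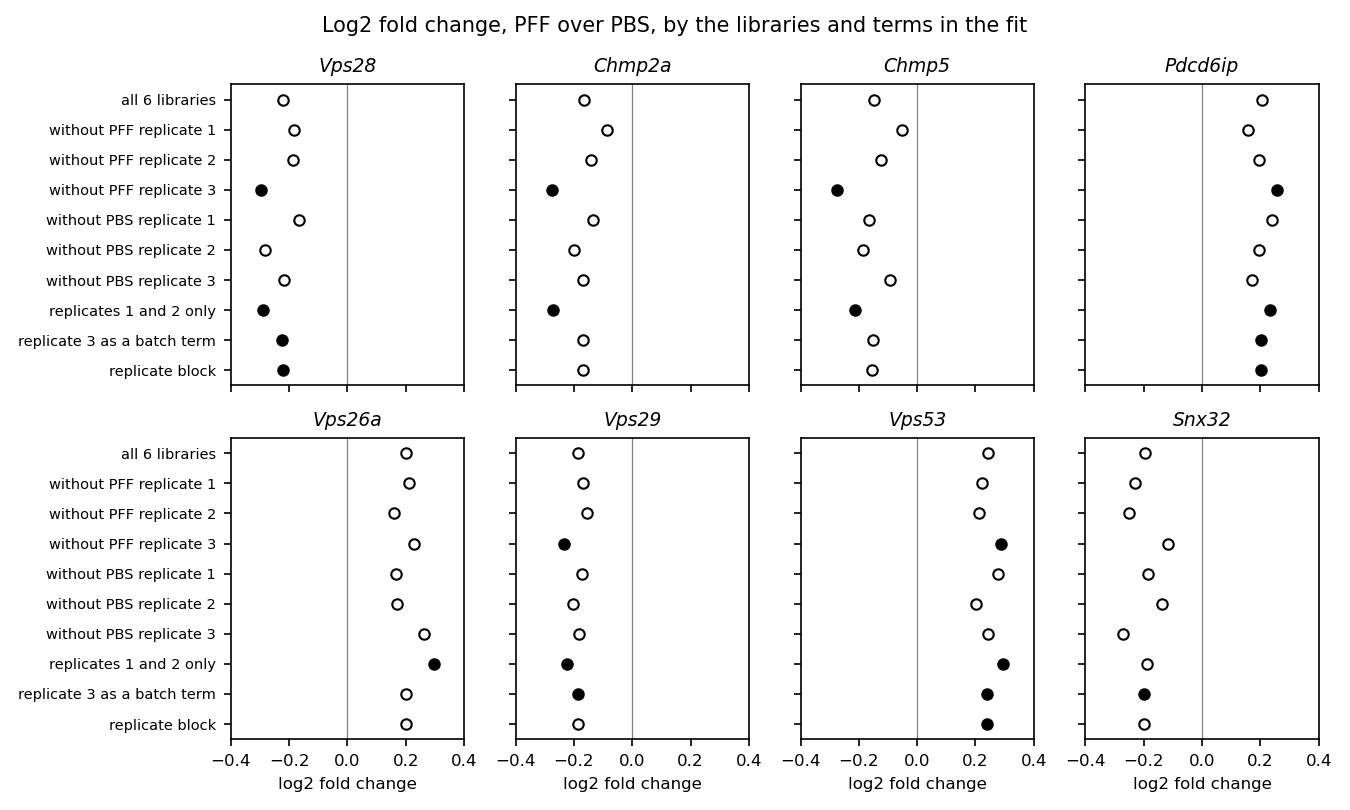
The log2 fold change of PFF over PBS is drawn for the 8 members that were called in at least 1 alternative fit, with 1 row for each choice of libraries or model terms and filled circles where the adjusted p was under 0.05. The direction of each of the 8 genes is the same in every row, and no circle is filled in the top row, the fit of all 6 libraries with group as the only term.

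Genes that work with these complexes but carry other names gave 1 call, where 6.58% of all genes were called in either direction. Of 12 ESCRT accessory genes, 0 were called, with a median log2 fold change of -0.04 and 1 gene at an unadjusted p under 0.05; DESeq2 and limma-voom also called none of them. The 2 with the smallest p were Cc2d1a, which binds CHMP4 proteins, at 0.24 ± 0.09 (edgeR adjusted p 0.137) and Arrdc1, an arrestin-like ubiquitin ligase adaptor, at 0.27 ± 0.15 (adjusted p 0.319). A second list held 23 genes: the WASH complex, the COMMD proteins, Ccdc22, Ccdc93, the endosomal PI3-kinase, Tbc1d5, Ehd1, Vipas39 and Ankfy1. Of these 23, 1 was called higher and 0 lower, with a median of -0.02. With 6 of 23, or 26.1%, at an unadjusted p under 0.05, against 21.2% of all genes, neither share is read as a result about the list. The called gene was Tbc1d5, a GTPase-activating protein for Rab7 that binds retromer. It stood at 49.6, 50.9 and 46.0 CPM in PFF and 39.2, 41.0 and 35.5 CPM in PBS libraries, and every PFF library lay above every PBS library. Its log2 fold change was 0.34 ± 0.09 with an edgeR adjusted p of 0.0333. The call was lost when PBS 1, PBS 2, PBS 3, PFF 1 or PFF 2 was left out, at adjusted p from 0.0550 to 0.169, and held without PFF 3, at 0.0116.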

How the data were processed

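RNA of the 6 samples was sequenced after a directional library kit, per the labels. The authors deposited estimated counts for each gene, unscaled, of which 8.69% are not whole. Trim Galore 0.6.6, STAR 2.7.9a, DESeq2 1.38.3 and mm10 are named, per the submitters' processing notes, and the series' design text names RNAseqChef. The counting tool, its annotation and its use of strand are not given in the sources used.

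Counts were rounded and fitted with edgeR 4.0.16 (R 4.3.3): filterByExpr, TMM, group as the only term, robust quasi-likelihood F-test, two-sided, Benjamini-Hochberg over 13919 genes, threshold 0.05. The filter left out 10492 genes. Intervals are 95% from the fit, SE is the fitted log2 fold change over the root of F, and CPM are TMM-scaled. TPM used union exonic lengths of GENCODE vM21 (GRCm38, the mm10 assembly), to which 98.5% of symbols were matched. Exon overlaps came from the same annotation, and 9 members share over 10% of their bases. DESeq2 1.42.0 and limma-voom (limma 3.58.1) were alternatives, with other scalings, filters and left-out libraries; fits on replicates 1 and 2 and with replicate 3 as a batch term were chosen after seeing the data. The main fit was tested on simulated counts with the same dispersion for every gene and no difference between replicates. That test cannot bear on how replicate 3 was treated. Libraries of a group differed by more than sampling noise, with chi-square per degree of freedom of 2.70 to 9.20. Intervals and floors cover counting error and spread among these libraries only.

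The members, complexes and lists were chosen with earlier results of these data known. Named were all members with an unadjusted p under 0.05, the 2 smallest p and the highest TPM in each complex, untested members, and by the same p the accessory genes. Members outside this rule, given to complete a complex, were chosen after their values were seen. 1 gene that the rule leaves out is not reported here.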

Additional observations from a re-analysis of the deposited data

How the results depend on the processing

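With 5 other scalings or filters on low counts, DESeq2, limma-voom, no robust estimation or a threshold of 0.10, 0 members were called. The count of all genes called was 916; it was 1391 at 0.10, 412 to 1858 with 1 library left out, 2394 on replicates 1 and 2, and 2005 when a batch term marked replicate 3. Members called ran from 0 to 2 higher and from 0 to 4 lower with 1 library left out. They came to 3 higher and 4 lower with replicates 1 and 2 only, and to 2 and 3 with the batch term. The accessory genes called, from lists of 12 and 23, ran from 0 to 4 with 1 left out. The 4 were without PFF 3, where 13.2% of all genes were called. They were 5 on replicates 1 and 2 and 4 with the batch term, where 17.2% and 14.4% of all genes were called. These counts are not read as a result about the lists. The single call without PBS 3 was Commd6, not Tbc1d5. The cause was not tested. Members with an unadjusted p under 0.05 ran from 2 to 16. The share of all genes at that p was computed for the main fit only, so this range is not read as a result about the members.

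The replicate numbers were not taken as pairs in the main fit, and the labels do not say whether they mark pairs. Deviations of same-numbered libraries correlated at 0.092, 0.109 and 0.202, all positive. Of libraries with unlike numbers, PFF 1 and PBS 2 correlated at 0.128, and all others were negative, from -0.207 to -0.009. With the number as a replicate block, 1997 of 13919 genes were called. Of the 76 members, 2 were called higher (Pdcd6ip and Vps53) and 1 lower (Vps28), or 3.95%, a smaller share than that of all genes. The accessory genes called were 4, from lists of 12 and 23, which is not read as a result about the lists.

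Of 644 alternative values of 38 named genes, 591 kept direction and call. In 27 the sign turned, all in uncalled genes near 0. Snx4 was -0.0011 with DESeq2 size factors and in DESeq2's test, -0.0099 with upper-quartile scaling and -0.0054 without a filter. Vps41 was -0.0085 with the upper quartile, -0.0039 without a filter and -0.0084 with replicates 1 and 2 only. Snx13 was -0.0050 with the upper quartile and -0.00090 without a filter. By library size alone Snx17 was 0.0055 and Snx27 0.016, and Snx27 was 0.012 with replicates 1 and 2 only. With 1 library left out, Snx4 ran from -0.027 to 0.022, Vps41 from -0.018 to 0.023, Snx13 from -0.063 to 0.12, Snx17 from -0.063 to 0.015, Snx27 from -0.040 to 0.013, Vps36 from -0.16 to 0.026, Snx8 from -0.16 to 0.016 and Snx14 from -0.11 to 0.011.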

Other observations

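Across genes, the fold change was weakly related to exonic length. Spearman's rho between the log2 fold change and the length was 0.16 over 13827 genes and 0.05 over the 76 members. Without PFF 3 it was 0.23 over all genes and 0.14 over the members, and for PFF 3 minus PBS 3 alone it was -0.04 and -0.02. Genes share libraries and are not independent replicates, so these values are a description.

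In the accessory list, the genes with an unadjusted p under 0.05 that were not called in the fit of all 6 libraries were Cc2d1a, Ehd1, Commd3, Commd4, Commd6 and Pik3r4. An unadjusted p under 0.05 was found in 8.33% of the ESCRT accessory genes and 26.1% of the list with the WASH, COMMD and PI3-kinase genes, against 21.2% of all genes. Ehd1, which remodels recycling tubules, stood at 77.3, 77.5 and 78.8 CPM in PFF and 90.3, 88.4 and 90.9 CPM in PBS libraries, without overlap, with a log2 fold change of -0.21 ± 0.07 (edgeR adjusted p 0.106). The COMMD genes encode subunits of the complex that works with retriever. Commd3 gave -0.24 ± 0.10, Commd4 -0.24 ± 0.10 and Commd6 -0.30 ± 0.12, while Commd10 gave 0.18 ± 0.10. Commd5 and Commd7 were also positive, at 0.12 and 0.07. Commd1, Commd2, Commd8 and Commd9 ran from -0.16 to -0.08. Pik3r4, the regulatory subunit of the kinase that makes the lipid bound by sorting nexins, gave 0.22 ± 0.09.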
